A study of Mus musculus with 8 samples.

Results

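CpG-rich promoters were taken as windows of 500 bp on each side of the 5′ end of a protein-coding gene on mouse chromosomes 1 to 19, with a GC content of at least 55% and a CpG observed/expected ratio of at least 0.75. The observed/expected ratio is the number of CpG dinucleotides in the window divided by the number that its C and G content would give. Of 20807 protein-coding genes in the GENCODE annotation of GRCm38, 5341 (25.7%) met the rule, and the other 15466 served as the comparison. Both thresholds use the DNA sequence alone, so no promoter was taken or left out by its own peaks. The members were, however, chosen with earlier results of these data known. The CpG-rich windows had a median GC content of 64.0% and a median CpG observed/expected ratio of 0.855, with between 56 and 172 CpGs each (median 87). In the other promoters the medians were 51.9%, 0.369 and 23 CpGs. Windows of 1204 CpG-rich promoters (22.5%) met the window of another protein-coding gene, so these values are not independent of each other.

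The windows were measured in 4 hMeDIP-seq peak lists of bone marrow pro-B cells sorted as B220+CD43+IgM- from C57BL/6 mice of 4 to 6 weeks. Libraries 1 and 2 of the wild-type group came from Hdac7+/- littermates, and libraries 1 and 2 of the HDAC7-deficient group from Hdac7 fl/- mice with mb1-Cre, a Cre recombinase knocked into the B-lineage gene Cd79a. Both genotypes therefore carried an Hdac7 allele marked “-”, and the controls had 1 working copy. Sheared DNA was pulled down with an antibody against 5-hydroxymethylcytosine (5-hmC), sequenced, and turned by the authors into a list of peak positions per library. The lists give no height or read count, so sequencing depth is unknown, and the extent of 5-hmC signal is given here as bases under peaks per kb of sequence. On chromosomes 1 to 19 the lists held from 1246432 to 1364224 peaks, which covered from 9.30% to 10.8% of the sequence. Nothing in the labels says whether the 2 libraries of a genotype came from separate animals, so p-values measure the spread between these libraries alone.

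CpG islands are stretches in which the CpG dinucleotide has not been lost over evolution, and they cover the start sites of most housekeeping genes and of many developmental regulators. In mammalian cells the cytosines of such promoters are mostly unmethylated. 5-hmC is made by TET dioxygenases, which oxidise 5-methylcytosine, so it can arise only where cytosine is or was methylated. HDAC7 is a class IIa histone deacetylase that acts with MEF2 factors and corepressors as a repressor of lineage-inappropriate genes in early B cells.

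The sequences below show what lay under peaks in windows that are CpG-rich as a whole, and are given 5′ to 3′ on the strand of the gene, from GRCm38, with every CpG in capitals. Positions count from the 5′ end of the gene record, with upstream bases negative. Rab43 (chr6:87812183-87812332, minus strand, -168 to -19, in an intron of the overlapping gene Gm45140) and Itch (chr2:155133156-155133305, plus strand, -353 to -204, outside transcripts) were under a peak in all 4 libraries. Ikzf2 (chr1:69686745-69686894, minus strand, 351 to 500, intronic) and Phb2 (chr6:124712588-124712703, plus strand, 252 to 367, intronic) were under a peak in both HDAC7-deficient libraries and in no wild-type one. Med8 (chr4:118409550-118409667, plus strand, 213 to 330, intronic) was under a peak in both wild-type libraries and, over this stretch, in no HDAC7-deficient one. Foxo1 (chr3:52268186-52268335, plus strand, -150 to -1) had no peak within 500 bp in any library.
Rab43: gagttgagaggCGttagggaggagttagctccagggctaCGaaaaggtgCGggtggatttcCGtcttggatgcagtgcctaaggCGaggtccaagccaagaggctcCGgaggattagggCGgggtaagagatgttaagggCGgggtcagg
Itch: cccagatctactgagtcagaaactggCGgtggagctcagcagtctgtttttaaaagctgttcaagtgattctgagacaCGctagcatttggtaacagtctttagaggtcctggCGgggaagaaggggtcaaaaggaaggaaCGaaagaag
Ikzf2: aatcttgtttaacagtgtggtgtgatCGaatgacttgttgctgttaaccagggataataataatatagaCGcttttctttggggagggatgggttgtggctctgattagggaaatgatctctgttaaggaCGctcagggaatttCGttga
Phb2: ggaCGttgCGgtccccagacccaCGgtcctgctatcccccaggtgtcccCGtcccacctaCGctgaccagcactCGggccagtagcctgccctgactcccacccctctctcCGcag
Med8: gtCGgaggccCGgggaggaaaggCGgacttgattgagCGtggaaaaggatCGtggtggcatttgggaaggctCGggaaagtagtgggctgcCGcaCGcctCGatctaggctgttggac
Foxo1: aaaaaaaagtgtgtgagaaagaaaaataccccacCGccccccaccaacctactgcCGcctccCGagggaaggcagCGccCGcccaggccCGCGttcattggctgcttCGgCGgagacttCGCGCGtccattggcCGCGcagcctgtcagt
The 150 bases of Foxo1 held 14 CpGs, against 8 in the 150 bases of Rab43 and 4 each in those of Itch and Ikzf2. The stretches of Phb2 (116 bases) and Med8 (118 bases) held 7 and 9 CpGs. The stretches lie at different distances from the 5′ end, so their counts do not separate peaks from position. Over all CpG-rich promoters, CpG density was 11.4 per 100 bp from -100 to 0 and 5.26 from -400 to -300. From -150 to -1, Hdac5, with no peak within 500 bp in any library, held 8 CpGs. Rplp0, under a peak of wild-type replicate 2 over that stretch, held 13.

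Measured in bases, peaks covered less of the CpG-rich promoters than of other promoters in every library. The share with a peak was lower in both wild-type libraries (45.8% against 49.4%, 45.3% against 52.3%) and HDAC7-deficient replicate 2 (34.9% against 46.8%). In HDAC7-deficient replicate 1 it was not, with 52.6% against 52.0%. Bases under peaks per kb at CpG-rich promoters were 81.2 in wild-type replicate 1, 91.8 in wild-type replicate 2, 93.0 in HDAC7-deficient replicate 1 and 65.1 in HDAC7-deficient replicate 2. At the other promoters they were 101, 120, 103 and 104, in the same order, which holds wherever 4 values are given. CpG-rich promoters thus had 0.801, 0.766, 0.906 and 0.629 of the coverage of other promoters, on average 0.776 ± 0.114 (SD, n = 4 libraries; two-sided exact permutation test over the signs of the log2 ratios, p = 0.13). This is the smallest p that 4 libraries allow, so no such difference can pass 0.05, and the ratio was below 1 in 4 of 4 libraries. The mean ratio was below 1 in each alternative tried. With the looser thresholds (GC at least 50%, ratio at least 0.6) it was 0.925, and not all 4 libraries were below 1 (exact permutation p = 0.25).

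Against all of chromosomes 1 to 19, where peaks covered 94.1, 108, 93.0 and 106 bases per kb, the CpG-rich promoters stood at 0.862, 0.853, 1.000 and 0.613 (mean 0.832 ± 0.161, SD, n = 4; exact permutation p = 0.13). HDAC7-deficient replicate 1 was level with its chromosomes, and HDAC7-deficient replicate 2 was the farthest below. The comparison with CpG-rich windows away from genes had another outcome. On the same chromosomes, 481 windows met both sequence thresholds more than 5 kb from the 5′ end of any annotated gene, of which 383 lay inside protein-coding genes. They had 80.3, 72.2, 95.8 and 66.7 bases under peaks per kb, and the ratio of CpG-rich promoters to them was 1.01, 1.27, 0.971 and 0.977 (mean 1.06 ± 0.144, SD, n = 4; exact permutation p = 0.875). The 2 wild-type libraries were above 1 and the 2 HDAC7-deficient ones below. The genotype means of this ratio were 1.14 ± 0.185 and 0.974 ± 0.00434 (SD, n = 2), a difference of -0.168 ± 0.185, within its propagated SD (exact permutation p = 0.33, the smallest that 2 against 2 libraries allow). The outcome depended on the windows chosen. Without wild-type replicate 2 the mean over the remaining libraries was 0.986. But all 4 libraries were above 1 with 250 bp on each side (mean 1.12), with the looser thresholds (1.40) and with windows away from every transcript start (1.25), each at the smallest p of the exact test. The plot of coverage by class of sequence gives the values of each library.

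**Figure D1:**
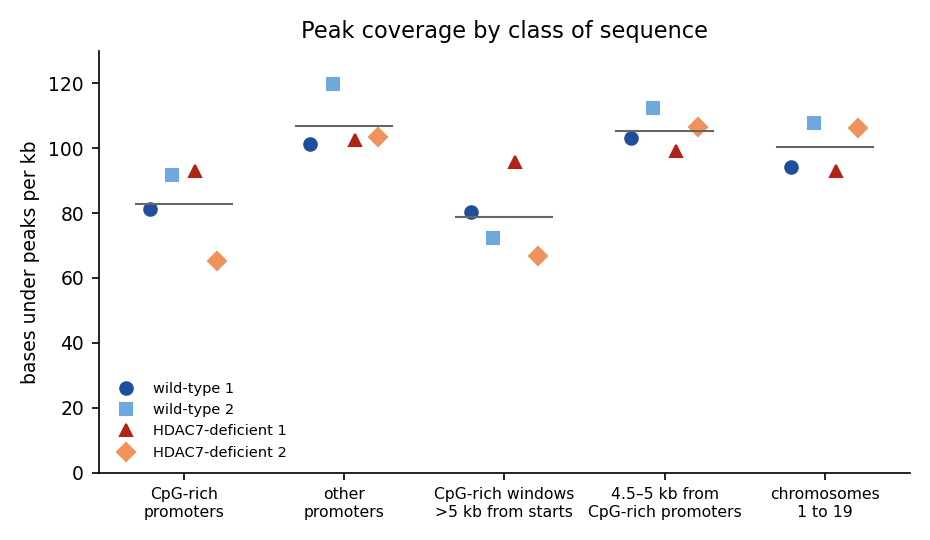
Bases under 5-hmC peaks per kb (vertical axis) in 5 classes of sequence, with 1 point per library and a grey line at the mean of the 4. In each library the CpG-rich promoters lie below the other promoters, and they lie at 65.1 to 93.0, near the 66.7 to 95.8 of CpG-rich windows away from gene starts.

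The low coverage was narrow and centred just inside the gene. In bins of 100 bp, the lowest value lay 200 to 300 bp downstream of the 5′ end in wild-type replicate 1 and HDAC7-deficient replicate 1, and 100 to 200 bp downstream in the other two libraries. It was 68.0 and 70.5 bases per kb for wild-type 1 and 2, and 84.0 and 42.8 for HDAC7-deficient 1 and 2. Relative to the mean beyond 2000 bp of the same promoters these are 0.654, 0.616, 0.833 and 0.393. HDAC7-deficient replicate 2 had the deepest gap and HDAC7-deficient replicate 1 the shallowest, so the wild-type libraries lay between them.

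The gap ended within the first step beyond the window on both sides. In the 500 bp upstream of the 5′ end, coverage was 88.2, 105, 97.7 and 79.5 bases per kb in wild-type 1 and 2 and HDAC7-deficient 1 and 2, and in the 500 bp downstream it was 74.1, 78.3, 88.4 and 50.8, lower than upstream in all 4 libraries. From 500 to 1000 bp it was 105, 120, 101 and 110 upstream and 111, 128, 116 and 106 downstream. From 1000 to 1500 bp downstream coverage was 117, 122, 111 and 114, in each library above its mean beyond 2000 bp (104, 114, 101 and 109). In the last step, 4500 to 5000 bp away on both sides, it was 103, 112, 99.0 and 107. CpG-rich windows had 0.787, 0.817, 0.940 and 0.612 of the coverage of this last step (mean 0.789 ± 0.135, SD, n = 4; exact permutation p = 0.13), and other promoters had 0.976, 1.05, 1.02 and 0.924 of theirs (mean 0.990 ± 0.0528; exact permutation p = 0.75). Divided by each other within a library, the promoter classes gave 0.794 ± 0.108 (SD, n = 4; exact permutation p = 0.13), again at the limit of the design. The window mean of other promoters hides a shallower dip. In the first 100 bp downstream they had 90.7, 115, 93.4 and 93.2 bases per kb, against 104, 115, 101 and 112 in their last step. From 200 to 300 bp downstream they had 105, 131, 113 and 109. A dip at the 5′ end was thus not particular to CpG-rich promoters, except in wild-type replicate 2.

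**Figure D2:**
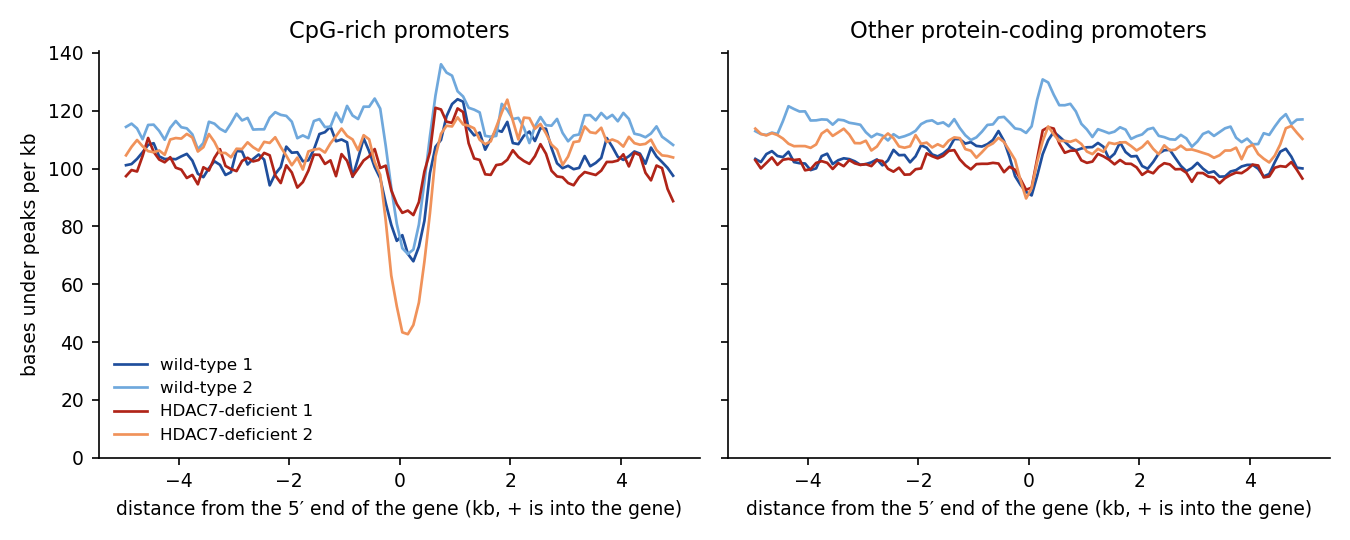
Bases under 5-hmC peaks per kb in bins of 100 bp (vertical axis) against the distance from the 5′ end of the gene in kb, for CpG-rich promoters (left) and other protein-coding promoters (right), with 1 line per library. The CpG-rich promoters show a trough just downstream of the 5′ end, which reaches 84.0 in HDAC7-deficient replicate 1 and 42.8 in HDAC7-deficient replicate 2. Upstream they return to about the level of their flanks beyond 500 bp. Downstream they pass above it, with means of 117, 122, 111 and 114 from 1000 to 1500 bp in wild-type 1 and 2 and HDAC7-deficient 1 and 2. Except in wild-type replicate 2, the other promoters show a shallower dip at the 5′ end.

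From an intermediate CpG content upwards, coverage fell as CpG content rose. Over all protein-coding promoters it was highest at a CpG observed/expected ratio of 0.4 to 0.5, with 123, 146, 132 and 125 bases per kb in wild-type 1 and 2 and HDAC7-deficient 1 and 2. It was lowest at a ratio of 1 or above, with 49.0, 42.4, 63.1 and 36.9 bases per kb over 401 promoters. No step marked the threshold of the rule. Promoters just below it, with ratios from 0.7 to 0.75 (1448 promoters of any GC content), had 97.8, 126, 102 and 98.0 bases per kb, and those from 0.75 to 0.8 (1517) had 94.96, 118, 105 and 84.4. Promoters with almost no CpG (ratio below 0.1) also had low coverage, with 70.1, 80.2, 70.7 and 83.5 bases per kb.

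Among the CpG-rich promoters, GC content separated the libraries. From the 532 windows with 55 to 57.5% GC to the 904 windows with 70% or more, coverage went from 79.6 to 61.8 bases per kb in wild-type replicate 1, from 118 to 46.1 in wild-type replicate 2, from 90.9 to 78.9 in HDAC7-deficient replicate 1 and from 93.8 to 24.5 in HDAC7-deficient replicate 2. The fall had a different course in the 2 libraries of each genotype. In wild-type replicate 1 and HDAC7-deficient replicate 1 coverage in the 5 bands between lay from 83.0 to 88.1 and from 93.8 to 99.95, above the lowest band, and only the band of at least 70% GC was below it. In wild-type replicate 2 coverage was 102, 89.0 and 70.2 in the bands from 62.5% up to 70%, and in HDAC7-deficient replicate 2 it fell with each band. The ratio of the upper to the lower band was 0.776, 0.391, 0.867 and 0.262, below 1 in 4 of 4 libraries (exact permutation p = 0.13). Each genotype held a library with a small fall and one with a large fall, and the group means of this ratio, 0.584 ± 0.272 and 0.564 ± 0.428 (SD, n = 2), did not differ beyond that spread (exact permutation p = 1). Windows of any CpG content more than 5 kb from gene starts showed a like order, with ratios of 0.473, 0.396, 0.579 and 0.262 between those with at least 70% GC (119 windows) and those with 55 to 60% (18277). GC content thus moved with coverage away from promoters too, and its part in the results at CpG-rich promoters was not tested.

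The same was seen base by base inside the windows. CpG density was 7.41, 6.76, 7.88 and 6.06 CpGs per 100 bp under peaks and 9.21, 9.30, 9.19 and 9.27 in the rest of the same windows, a ratio of 0.761 ± 0.0894 (SD, n = 4; exact permutation p = 0.13; below 1 in 4 of 4 libraries). Of all bases in CpG-rich windows, 78.5% were under a peak in no library and 0.707% in all 4. CpG density fell at each step from 9.49 per 100 bp in the bases under no peak to 7.99, 7.15, 5.95 and 5.29 in those under a peak in 1, 2, 3 and 4 libraries, and GC content fell from 65.3% to 57.3%. Bases under peaks of all 4 libraries lay on average 293 bp from the 5′ end and those under none 247 bp. The fall was present at both distances, from 11.0 to 6.61 CpGs per 100 bp within 250 bp of the 5′ end and from 7.89 to 4.51 farther out.

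**Figure D3:**
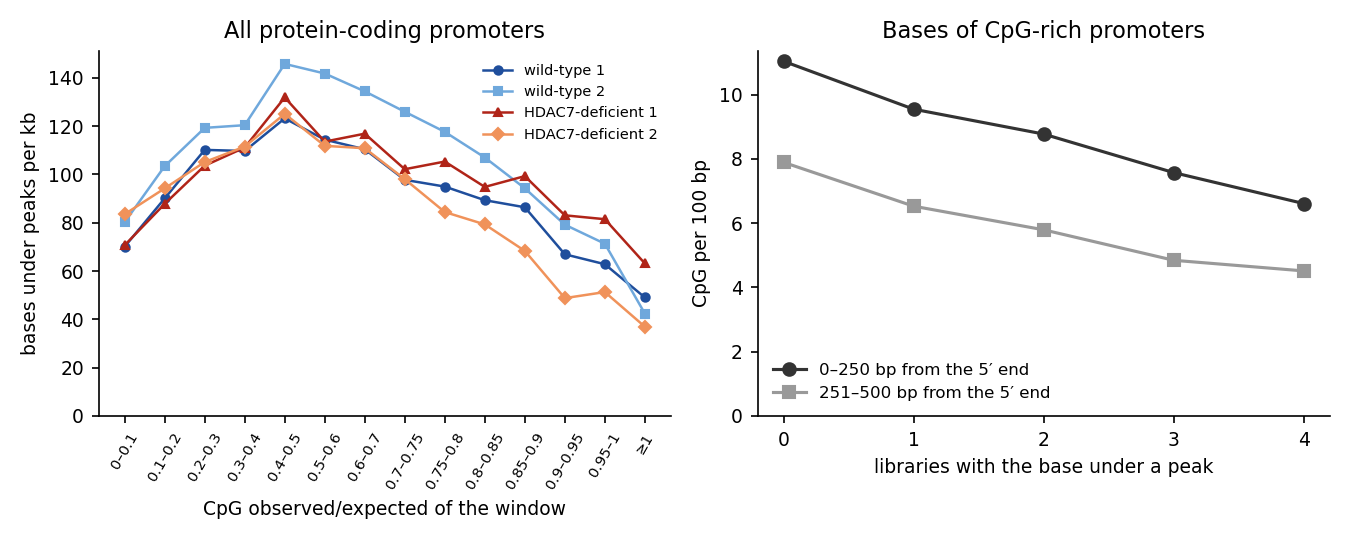
Left, bases under peaks per kb (vertical axis) of all protein-coding promoters by the CpG observed/expected ratio of the window, with 1 line per library. Right, CpGs per 100 bp (vertical axis) in bases of CpG-rich promoters by the number of libraries in which the base was under a peak, for the inner and the outer part of the window. On the left, coverage in the last band is below that in the 0.4 to 0.5 band in each library, and on the right CpG density falls from 11.0 to 6.61 in the inner part and from 7.89 to 4.51 in the outer part.

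The genotypes did not differ beyond the spread between replicates in how many CpG-rich promoters had a peak or in how much of them peaks covered. A peak touched 2445 CpG-rich promoters (45.8%) in wild-type replicate 1, 2420 (45.3%) in wild-type replicate 2, 2811 (52.6%) in HDAC7-deficient replicate 1 and 1866 (34.9%) in HDAC7-deficient replicate 2. Of the HDAC7-deficient values, one was thus above and the other below both wild-type values. Of the other promoters, 49.4%, 52.3%, 52.0% and 46.8% had a peak, in the same order. For CpG-rich promoters the mean share was 45.5 ± 0.331% in wild-type and 43.8 ± 12.5% in HDAC7-deficient libraries (SD, n = 2), a difference of -1.76 ± 12.5 percentage points (two-sided exact permutation test over 6 relabellings, p = 1). With 2 libraries per genotype this exact test cannot go below p = 0.33. Coverage within 500 bp was 86.5 ± 7.56 and 79.1 ± 19.7 bases per kb, an HDAC7-deficient to wild-type ratio of 0.914 ± 0.241 (exact permutation p = 1). Without HDAC7-deficient replicate 2 the difference in share was 7.09 points and the ratio of coverage 1.08.

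From 500 to 5000 bp the replicates were closer to each other. Coverage there was 106 and 116 bases per kb in the wild-type and 102 and 109 in the HDAC7-deficient libraries, a ratio of 0.952 ± 0.0753 (n = 2; exact permutation p = 0.667). The window relative to its own 4500 to 5000 bp step gave an HDAC7-deficient to wild-type ratio of 0.968 ± 0.290 (exact permutation p = 1), or 1.17 without HDAC7-deficient replicate 2. The base at the 5′ end itself was under a peak at 411, 414, 466 and 247 CpG-rich promoters (7.70%, 7.75%, 8.72% and 4.62%). Of the other promoters, 9.28%, 11.4%, 9.23% and 9.19% had that base under a peak. On chromosomes 1 to 13 alone coverage within 500 bp of CpG-rich promoters was 82.6, 93.9, 93.3 and 64.3 bases per kb, with HDAC7-deficient replicate 2 again the lowest. Where a peak reached these windows it had a median width of 157, 183, 136 and 188 bp, against 166, 161, 147 and 171 bp elsewhere on the chromosomes.

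Peaks were present in no library at 1209 of the 5341 CpG-rich promoters (22.6%), in 1 at 1174, in 2 at 1213, in 3 at 1038 and in all 4 at 707 (13.2%). Among other promoters the shares with none and with 4 were 21.9% and 21.0%. From the CpG-rich promoters with none to those with 4, the median GC content went from 65.1% to 62.6%, the median number of CpGs from 93 to 81, and mean coverage from 500 to 5000 bp from 101 to 118 bases per kb. Libraries of 1 genotype were not the most alike. The wild-type libraries shared 1462 promoters with a peak (59.8% and 60.4% of their own), the HDAC7-deficient ones 1307 (46.5% and 70.04%), and wild-type 1 and HDAC7-deficient 1 shared 1745 (71.4% and 62.1%). Across CpG-rich promoters, which share the libraries and differ in base composition, Pearson's r of bases under peaks was 0.363 and 0.335 within the genotypes and from 0.325 to 0.485 between them. It was highest for wild-type 1 and HDAC7-deficient 1 and next for wild-type 2 and HDAC7-deficient 2 (0.386), the pairs of equal number.

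A peak in both HDAC7-deficient libraries and no wild-type one was found at 130 CpG-rich promoters (2.43%), against 2.44% of all protein-coding promoters. The reverse pattern was found at 187 (3.50%), against 3.15%. Bases under peaks were higher in each HDAC7-deficient library than in either wild-type one at 335 CpG-rich promoters (6.27%; 7.68% of all promoters) and lower at 498 (9.32%; 10.3%). These shares lie near or below the background of all promoters. No test per promoter can be made from positions in 2 against 2 lists, and the genes named next for their gaps were chosen by the values shown, which are a description.

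The largest gaps in favour of HDAC7-deficient libraries were seen at Phb2, Hspa8, Rps6ka2, Ikzf2, Mib1 and Nrbf2. Phb2, which encodes prohibitin 2 of the inner mitochondrial membrane, had none in either wild-type library, against 347 and 457 bases under peaks in the HDAC7-deficient ones. Hspa8, the constitutive HSC70 chaperone, had 12, 0, 366 and 352. Rps6ka2, a ribosomal S6 kinase, had 0, 0, 298 and 371. In all of these the genotypes did not overlap, which the choice by gap fixes. Ikzf2, which encodes the Ikaros family factor Helios, had 0, 0, 287 and 298 bases, in a single peak per HDAC7-deficient library. Mib1, a ubiquitin ligase for Notch ligands, had 104, 0, 441 and 369. Nrbf2, a partner of the autophagy PI3-kinase complex, had 0, 0, 259 and 258. The peaks of the HDAC7-deficient libraries overlapped each other at each of these genes, by 139 bp at Rps6ka2 up to 358 bp at Mib1 for the longest shared stretch. Phb2 shares part of its window with another protein-coding promoter.

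The largest gaps in favour of wild-type libraries included Med8, Dhx29, Mtrex, Hdhd2 and Edf1. Med8, a Mediator subunit, had 561, 698, 162 and 0 bases under peaks in wild-type 1 and 2 and HDAC7-deficient 1 and 2. Dhx29, a helicase of translation initiation, had 487, 606, 96 and 129, and its divergent neighbour Mtrex, a helicase of the nuclear exosome, had 487, 662, 96 and 129. At Med8 and at this pair at least 1 HDAC7-deficient library had a peak too, of smaller extent. Hdhd2 had 356, 401, 0 and 0. Edf1, a transcriptional coactivator, had 440, 353, 0 and 0.

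Signal in all libraries was widest at Rab43, Sf1, Stt3a, Susd1, Itch and Rps16, the promoters with the largest lowest value. Rab43, a small GTPase of the secretory pathway, had 627, 537, 660 and 736 bases under peaks within 500 bp. Sf1, which binds the branch point in splicing, had 728, 629, 596 and 442. Stt3a, a catalytic subunit of oligosaccharyltransferase, had 438, 704, 535 and 505. At Stt3a the genotypes overlapped, while at Rab43 both HDAC7-deficient values and at Sf1 both wild-type values were the higher. Susd1 had 578, 446, 610 and 430. The ubiquitin ligase Itch had 774, 620, 400 and 540, higher in both wild-type libraries, and the small-subunit ribosomal protein gene Rps16 387, 595, 725 and 450. At Susd1 and Rps16 the genotypes overlapped. The stretch shared by all 4 libraries ran from 170 bp at Stt3a to 356 bp at Susd1, and except at Stt3a it ended upstream of the 5′ end, at -19 for Rab43 as the nearest and -140 for Sf1 as the farthest.

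The stretches shared between libraries were mostly the CpG-poorer part of these windows. At Itch the shared 303 bp held 1.98 CpGs per 100 bp, against 7.09 in the whole window. At Susd1 the values were 3.65 and 6.79, and at Ikzf2 2.09 and 9.79. Of the 16 different stretches at the promoters chosen by their values, 14 had fewer CpGs per 100 bp than the window. The exceptions were Med8 (8.45 in the stretch, 6.69 in the window) and the divergent pair Dhx29 and Mtrex (7.88, and 6.99 in the window of Dhx29). Over all CpG-rich promoters CpG density was 11.4 per 100 bp from -100 to 0 and 5.26 from -400 to -300. The count of 14 therefore does not separate peaks from position in the window.

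**Figure D4:**
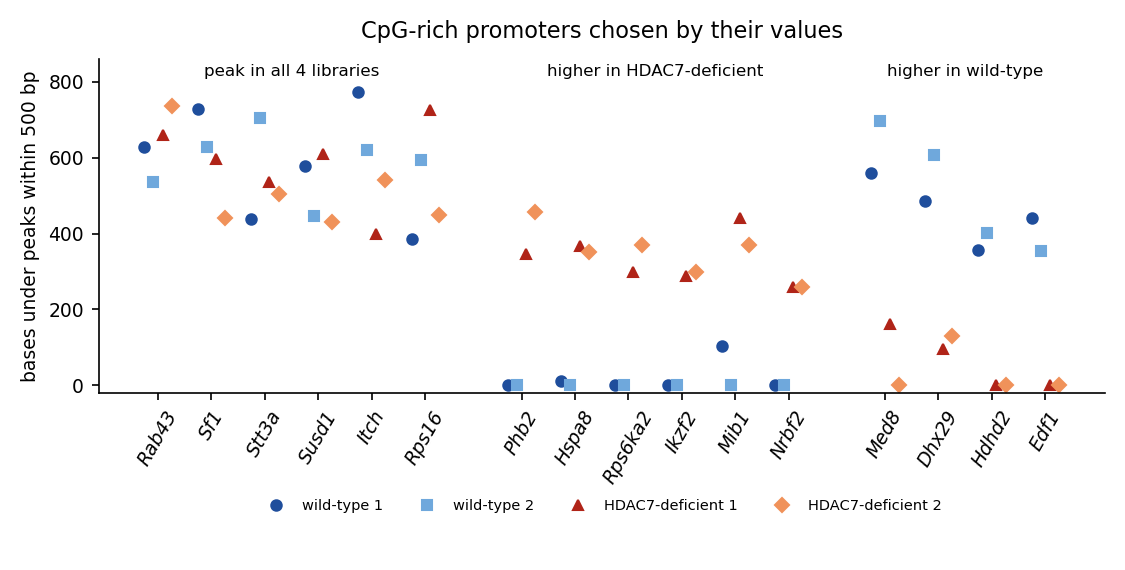
Bases under peaks within 500 bp of the 5′ end (vertical axis) in each library at 16 CpG-rich promoters chosen by these same values, with promoters over the same shared stretch drawn once. From left to right they are the promoters with the largest lowest value, at least 387 bases in each library, those with the largest gap in favour of HDAC7-deficient libraries, and those with the largest gap in favour of wild-type libraries.

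At 4 promoters without a peak in the window, chosen for the most signal around it, the gap stood inside well-covered flanks. Foxo1, a transcription factor that B cell progenitors need, had no peak within 500 bp, while from 500 to 5000 bp away it had 2113 and 1801 bases under peaks in the wild-type and 1812 and 2955 in the HDAC7-deficient libraries. Its window held 122 CpGs, at an observed/expected ratio of 1.05. Panx1, a membrane channel, had 2858, 2215, 2161 and 1779 bases in its flanks. Begain had 2420, 2249, 2320 and 1837, and Mycbp2, a ubiquitin ligase, 1758, 2501, 1875 and 1856.

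Genes of the HDAC7, TET2 and AP-1 pathways were looked at by name. Tet2, which encodes a TET dioxygenase and lies just inside the threshold with an observed/expected ratio of 0.7502, had 139 and 146 bases under peaks in the wild-type and 297 and 0 in the HDAC7-deficient libraries, so the genotypes overlapped. Jun, an AP-1 subunit, had 0, 0, 0 and 10. Fosl2 and Fosb, which encode Fos-family partners of Jun, had peaks in both wild-type libraries and in no HDAC7-deficient one, with 197, 90, 0 and 0 bases at Fosl2 and 113, 47, 0 and 0 at Fosb. Mef2d, a MEF2 factor bound by class IIa HDACs, had 0, 0, 172 and 3, with HDAC7-deficient replicate 2 holding only the 3-bp edge of a peak. These 3 patterns belong to the 187 and 130 promoters counted above, whose shares were near the background.

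Other members among the named genes gave low or mixed values. Dnmt3b, a de novo DNA methyltransferase, had 0, 134, 0 and 229 bases. Tcf3, which encodes E2A, had 10, 0, 0 and 0, Myc 23, 0, 0 and 0, and Hdac5, a class IIa paralogue of Hdac7, none. Rplp0 had 39, 571, 108 and 305 bases, and Actb 0, 298, 69 and 0. In none of them did both libraries of a genotype exceed both of the other. The remaining 14 of the 25 genes looked at did not meet the sequence thresholds at the 5′ end of their gene record. Hdac7 is among these, with a CpG observed/expected ratio of 0.228 and 356, 192, 38 and 190 bases under peaks within 500 bp, and peaks of a DNA mark do not check its deletion.

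Genes that every cell uses gave values on both sides of those of all CpG-rich promoters. The counts cover only the promoters that met the rule, such as 43 of 81 for cytosolic and 24 of 78 for mitochondrial ribosomal protein genes. For proteasome genes these were 9 of 38. Of 43 CpG-rich promoters of cytosolic ribosomal protein genes, 20, 23, 24 and 16 had a peak (46.5%, 53.5%, 55.8% and 37.2%), with 8 without any and 7 with a peak in all 4 libraries (18.6% and 16.3%, against 22.6% and 13.2% of all CpG-rich promoters). Rpl38 had 545, 344, 401 and 332 bases under peaks, and Rpl8 had 141, 47, 0 and 0. Mitochondrial ribosomal protein genes had 6 of 24 with a peak in every library, among them Mrpl43 with 402, 376, 541 and 421 bases. Of these 24 windows, 17 meet the window of another protein-coding gene. Spliceosome genes had 3 of 11, DNA replication and cell cycle genes 3 of 17 and proteasome genes 0 of 9. The proteasome promoters had 42.8 and 130 bases per kb in the wild-type and 21.2 and 25.6 for HDAC7-deficient 1 and 2. The wild-type values lay far apart. Snrnp70, a U1 snRNP protein gene, had 313, 647, 455 and 496 bases, and Gins2, of the replicative helicase, 402, 90, 353 and 430.

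Replication-dependent histone genes had few peaks. Of 29 such CpG-rich promoters, 0 and 7 had a peak in the wild-type and 3 and 4 in the HDAC7-deficient libraries, 21 had none in any (72.4%, against 22.6% of all CpG-rich promoters) and 0 had one in all 4. Coverage was 0, 43.3, 15.7 and 19.1 bases per kb. CpG-rich promoters of like GC content (55 to 60%) had 84.6, 113, 94.0 and 90.2, and those of like CpG observed/expected ratio (0.9 to 0.95) had 67.2, 77.6, 83.7 and 47.8. The flanks from 500 to 5000 bp were low too, with 54.9, 80.3, 54.1 and 63.1 bases per kb against 106, 116, 102 and 109 for all CpG-rich promoters. The widest signal was that of Hist1h4a, with 0, 316, 228 and 305 bases. These genes lie in clusters on chromosomes 3 and 13 and 21 of the 29 windows meet another, so they are not 29 separate observations. They are also near-identical copies, and whether reads that match several copies were kept is not given in the sources used here, so these values are uncertain.

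Regulators of blood cells were mixed. The 7 CpG-rich promoters of B-lineage transcription factors had 108, 43.5, 160 and 0 bases per kb, and none of them had a peak in HDAC7-deficient replicate 2. Ikzf3, which encodes Aiolos, had 147, 33, 390 and 0 bases, Bcl11a 248, 66, 314 and 0, Bach2 178, 0, 180 and 0, and Myb 0, 206, 0 and 0. HDAC7-deficient replicate 1 was the highest at Ikzf3, Bcl11a and Bach2 and replicate 2 the lowest or level with the lowest, so these genes do not separate the genotypes. Their flanks had 149, 174, 170 and 193 bases per kb, above the 106, 116, 102 and 109 of all CpG-rich promoters in each library. Of the 6 myeloid and T-lineage regulators, Tal1 had 206, 317, 226 and 553 bases and Cebpa, a myeloid master regulator, 160, 0, 152 and 0. Cebpb had 0, 76, 207 and 261, higher in each HDAC7-deficient library than in either wild-type one.

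Of 10 promoters of class IIa HDACs, MEF2 factors and corepressors, 4, 3, 7 and 3 had a peak. Hdac1 (406, 370, 289 and 213 bases) and Hdac2 (332, 35, 190 and 151), which encode class I deacetylases, had one in each library, while Ctbp1 and Hdac5 had none in any. Among 6 enzymes of DNA methylation and demethylation, Idh1, which makes the cosubstrate of TET enzymes, had 326, 162, 309 and 131 bases. Tdg, which encodes a DNA glycosylase, had none. The AP-1 family held 5 members, of which Mafk had 83, 314, 220 and 340 bases and Jund 150, 0, 232 and 134. Of 108 promoters of homeobox and developmental regulators, 34 met the rule and had 73.0, 80.2, 131 and 64.9 bases per kb. Of these 34, 8 were without any peak and 4 had one in all libraries, Tbx3, Lhx1, Hoxb7 and Hoxc11. Tbx3 had 108, 498, 258 and 502 bases. Of 7 imprinted genes, Nnat had 0, 0, 132 and 79 bases, Cdkn1c 331, 350, 11 and 386 and Igf2r 119, 20, 200 and 141. The germline list held only 2 CpG-rich promoters, Slc25a31 and Fkbp6.

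**Figure D5:**
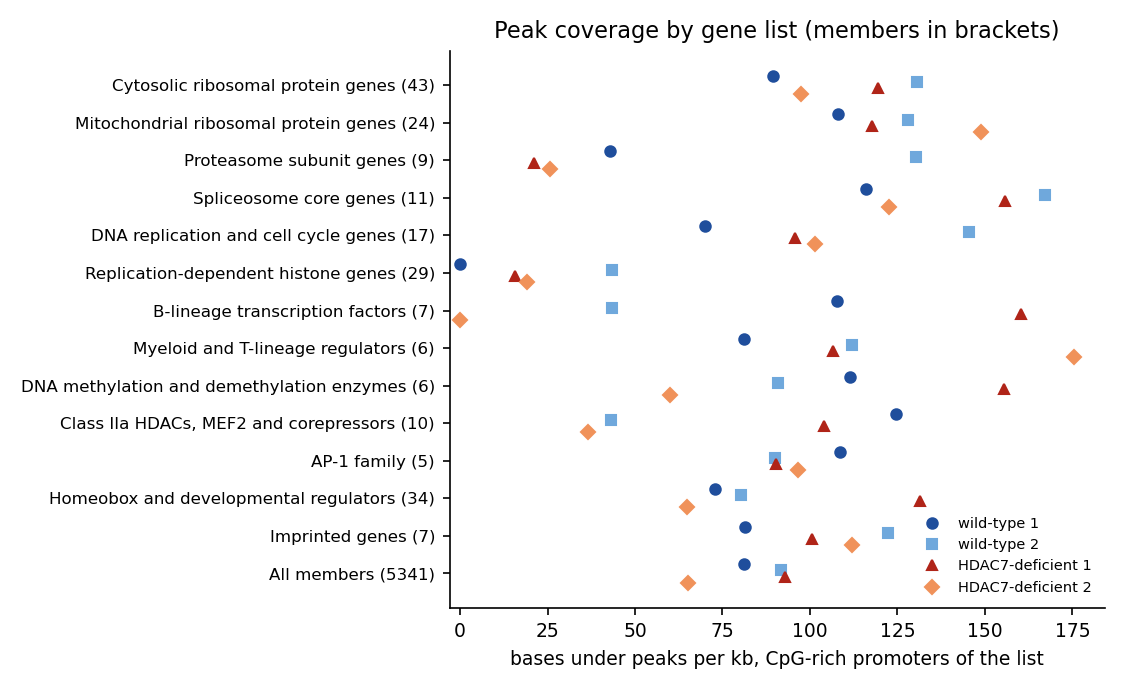
Bases under peaks per kb (horizontal axis) within 500 bp of the CpG-rich promoters of each gene list with at least 5 members, with 1 point per library. The replication-dependent histone genes lie at 0 to 43.3, below the 65.1 to 93.0 of all CpG-rich promoters, and in each list shown other than the proteasome subunit genes the values of the genotypes overlap.

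Short sequence elements were matched on both strands anywhere in the window. The GC box GGGCGG was found in 96.2% of CpG-rich promoters, 49.4% of other promoters and 61.4% of all protein-coding promoters. The TATA sequence TATAAA was found in 14.7%, 38.2% and 32.2%, and the E-box CACGTG in 23.1%, 15.3% and 17.3%. The thresholds on GC and CpG themselves favour GGGCGG and CACGTG and disfavour TATAAA, so these differences follow at least in part from the rule. CpG-rich promoters with no peak and those with a peak in all 4 libraries held at close to the same rate the E-box (24.5% and 24.2%), the cyclic AMP response element TGACGTCA (5.21% and 4.24%) or the AP-1 element TGACTCA (7.11% and 7.64%). The CCAAT box was found in 55.6% of those with no peak and 65.1% of those with 4, and the ETS motif CCGGAAGT in 8.77% and 12.9%. Over all protein-coding promoters the shares were 70.3% for the CCAAT box and 7.26% for the ETS motif. CpG-rich promoters with no peak and with 4 also differ in median GC content (65.1% and 62.6%), whose part in these shares was not tested. A match says only that these letters stand in the window.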

How the data were processed

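5-hmC was mapped by hMeDIP-seq in 2 wild-type and 2 HDAC7-deficient libraries; the 4 input libraries were not analysed here. According to the methods, DNA sheared to 300 to 400 bp was immunoprecipitated with an antibody against 5-hmC. The authors used cutadapt 1.6 through Trim Galore 0.4.2 for trimming and bwa 0.7.12 for mapping (the submitters' processing notes name Bowtie2, and build mm10), removed duplicates with Picard 2.8.0, normalized signal to RPKM with deepTools and called peaks per library by bdgpeakcall of MACS2 at a cutoff of 250, with peaks of at least 10 bp and gaps of up to 10 bp closed. Peaks found in the input as well were removed, and whether this preceded deposit is not given in the sources used here. The deposited values are peak positions alone, with no height or count, so depth cannot be read from them and counting intervals are left out. A fixed cutoff on the signal can make the extent of peaks vary with depth and background.

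Windows came from the gene records of GENCODE M21 and the GRCm38 sequence. The 5′ end of a gene record can differ from the start site used in pro-B cells. A peak counted when it overlapped the window by at least 1 bp. Windows away from genes were non-overlapping tiles of the same length. Values per library were compared between genotypes by two-sided exact permutation of labels (6 relabellings), and between classes with 16 sign changes of the log2 ratios. Ratios are of means with propagated SD. DiffBind and DESeq2, which the authors used, need reads and were not run. The members and gene lists were chosen with earlier results of these data known. Named genes were those of 25 genes of interest that are members (11; Hdac7, the targeted gene, is no member and is described besides), the 6 with the largest lowest value, the 6 with the largest gap in each direction and 4 without a peak but with the most signal around, together with gene list members that had a pattern of 1 genotype; other list members are named as examples. Some of the genes chosen are not reported here. Motifs were matched as exact letters on both strands. Alternatives were stricter and looser sequence thresholds, peaks at least 200 bp wide, chromosomes 1 to 13, windows that meet no other, 250 bp on each side, peak midpoints, a replicate block and each library left out. Python 3.11.15, NumPy 2.4.6, pandas 2.3.3 and matplotlib 3.10.9 were used, and the overlap code was tested on simulated data.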

Additional observations from a re-analysis of the deposited data

How the results depend on the processing

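Of 96 alternatives over 9 results, 78 gave the same outcome, 4 changed direction and 14 moved a count by more than 1.5 times. The ratio of CpG-rich to other promoters, and that to chromosomes 1 to 19, stayed below 1 on average in each alternative, but not in all 4 libraries with the looser thresholds (0.925, exact permutation p = 0.25, and 0.966, p = 0.75) and, for the chromosomes, on chromosomes 1 to 13 (0.845, p = 0.25) and for windows that meet no other (0.810, p = 0.25). Every genotype difference that changed direction did so without HDAC7-deficient replicate 2. Leaving out each library in turn gave a difference in the share with a peak from -10.6 to 7.09 points, a coverage ratio from 0.753 to 1.08, a ratio of windows relative to 4500 to 5000 bp from 0.763 to 1.17, and a ratio to CpG-rich windows away from gene starts from 0.986 to 1.09, the lowest without wild-type replicate 2. With windows away set by transcript starts, an alternative chosen after seeing the data, that last ratio was 1.25, with the looser thresholds it was 1.40 and with 250 bp on each side 1.12, each above 1 in all 4 libraries. The 130 promoters with a peak in HDAC7-deficient libraries alone became 54 with the stricter thresholds, 254 with the looser ones and 85 with peaks at least 200 bp wide, and from 288 to 571 with 1 library left out, which asks for fewer libraries. The 187 with a peak in wild-type libraries alone became 77, 322 and, with 250 bp on each side, 118, and from 335 to 607.

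With a replicate block, the difference in share was -1.76 points and the ratios were 0.902 within 500 bp, 0.952 in the flanks and 0.946 relative to 4500 to 5000 bp. The deviations of equal numbers correlated at 0.127 over members, but with 2 pairs the numbers were not taken to pair the samples, and the block changed no direction. Some measures followed the number. Coverage of chromosomes 1 to 19 was 94.1 and 93.0 bases per kb in replicates 1 and 108 and 106 in replicates 2. The ratio of the upper to the lower GC band was 0.776 and 0.867 against 0.391 and 0.262. Coverage of CpG-rich promoters did not (81.2 and 93.0 against 91.8 and 65.1). Whether equal numbers mark a shared batch was not tested. Depth cannot be judged from positions, and a missing peak may be signal just under the caller's cutoff.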
